A study of Mus musculus with 58 samples.

Results

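Lysosomal cathepsins and their secreted inhibitor cystatin C were followed in mouse microglia as 9 genes, Ctsa, Ctsb, Ctsc, Ctsd, Ctsh, Ctsl, Ctss, Ctsz and Cst3, chosen by name from the 47643 Ensembl genes of the deposited tables. All 9 symbols matched an identifier, and all 9 passed the filter on low counts in each comparison. RNA was sequenced from 34 microglia samples of a study on NF-κB in tauopathy that has 58 samples, and the 24 cortex samples were not analysed here. Primary microglia of wild-type mice received fibrils of full-length tau (2 µg/ml, 24 h) or vehicle, with 4 libraries in each group. Adult microglia came from male PS19 mice, which carry a P301S human tau transgene, and from male nontransgenic (NTG) mice, with 4 mice in each group aged 10.98 to 11.18 months. IkbkbCA primary microglia (5 libraries) expressed a constitutively active form of IKKβ, the kinase that switches on NF-κB, from the Rosa26 locus after Cre recombination, and were compared with IkbkbWT cultures (5 libraries). Ikbkb-/- primary microglia (4 libraries) had lost floxed Ikbkb after Cre recombination and were compared with Ikbkb+/+ cultures (4 libraries). Both Cre genotypes carried Cx3cr1 CreERT2/+ and so had 1 intact Cx3cr1 allele, while both controls carried the same floxed or Rosa26 alleles without Cre, and these mixed glial cultures from newborn pups were treated with 4-hydroxytamoxifen. Effects of the Ikbkb alleles, of Cre and of the missing Cx3cr1 allele cannot be told apart in these comparisons. Adult microglia were captured with CD11b beads, which other myeloid cells also bind. Replicates are numbered in accession order, and equal numbers pair no samples.

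Cathepsins are proteases that mature in the acid lumen of endosomes and lysosomes, where they degrade proteins delivered by endocytosis, phagocytosis and autophagy. Ctsb, Ctsc, Ctsh, Ctsl, Ctss and Ctsz encode cysteine proteases, Ctsd an aspartic protease and Ctsa a serine carboxypeptidase. Cystatin C is a secreted inhibitor that binds the active site of cysteine cathepsins and does not act on cathepsin D or A. Microglia express these genes strongly, and cathepsin S is unusual in staying active at neutral pH.

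The 9 genes are protein coding and lie, in GRCm38 coordinates of GENCODE M21, at chr2:164832873-164841032 (Ctsa, ENSMUSG00000017760), chr14:63122462-63145923 (Ctsb, ENSMUSG00000021939), chr7:88278085-88310888 (Ctsc, ENSMUSG00000030560), chr7:142375911-142388038 (Ctsd, ENSMUSG00000007891), chr9:90054152-90076089 (Ctsh, ENSMUSG00000032359), chr13:64359337-64370890 (Ctsl, ENSMUSG00000021477), chr3:95526786-95556403 (Ctss, ENSMUSG00000038642), chr2:174427493-174439039 (Ctsz, ENSMUSG00000016256) and chr2:148871722-148875692 (Cst3, ENSMUSG00000027447). Exons of Ctsa, Ctsb and Ctsz share 495, 774 and 10 bases with Pltp, Fdft1 and Nelfcd on the opposite strand, whose highest counts in a library were 493, 205 and 230. The strand setting of the counting is not given in the sources used here.

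Promoter windows are shown for Ctss, Ctsc and Ctsz, which were called higher both with tau fibrils and in IkbkbCA microglia, and shorter stretches for Ctsd and Ctsa, which changed in opposite directions with tau fibrils. They come from a RefSeq table (GRCm38.p6) that held windows for 7 of the 9 genes, Ctsb and Ctsh being the others, and the 250 bases before the start are printed 5′ to 3′. The windows lie at chr3:95526536-95526785 on the plus strand (Ctss), chr7:88277835-88278084 on the plus strand (Ctsc) and chr2:174439040-174439289 on the minus strand (Ctsz). Capitals mark motif matches on either strand.
Ctss: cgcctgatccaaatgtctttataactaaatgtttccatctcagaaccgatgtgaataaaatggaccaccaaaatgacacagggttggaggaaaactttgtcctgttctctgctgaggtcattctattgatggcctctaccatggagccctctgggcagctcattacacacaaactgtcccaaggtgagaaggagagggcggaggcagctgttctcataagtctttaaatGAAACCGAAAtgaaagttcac
Ctsc: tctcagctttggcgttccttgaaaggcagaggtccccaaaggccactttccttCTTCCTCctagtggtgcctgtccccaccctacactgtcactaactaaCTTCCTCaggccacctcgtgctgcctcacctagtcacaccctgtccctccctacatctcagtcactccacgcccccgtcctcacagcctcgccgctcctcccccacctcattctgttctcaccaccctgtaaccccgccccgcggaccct
Ctsz: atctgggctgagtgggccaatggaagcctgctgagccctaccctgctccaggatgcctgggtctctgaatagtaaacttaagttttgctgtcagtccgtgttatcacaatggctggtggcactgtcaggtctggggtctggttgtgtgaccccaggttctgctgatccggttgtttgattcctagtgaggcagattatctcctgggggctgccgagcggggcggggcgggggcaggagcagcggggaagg
The capitals in Ctss, GAAACCGAAA, match the core of an interferon-stimulated response element (GAAA, any 2 bases, GAAA), which 2.98% of all 32851 windows of 250 bases in the table held. The capitals in Ctsc match GAGGAAG, the core bound by the macrophage factor PU.1, on the minus strand, and 10.6% of all windows held it. Ctsz held none of the motifs searched. The NF-κB consensus was found in 7.25% of all windows and in none of the windows of the 7 matched genes.

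The palindrome TCACGTGA, the form of the CACGTG element that MiT factors such as TFEB bind, was present in 0.785% of all windows. It was in the window of Ctsd and in a window of Ctsa. Ctsa had another window, at chr2:164832622-164832871 by its annotated gene start, which held none of the motifs searched. The palindrome began 99 bases before the Ctsd start on chromosome 7 and 13 bases before a start of Ctsa on chromosome 2. The stretches of 30 bases shown lie at chr7:142387908-142387937 on the minus strand (Ctsd) and chr2:164833743-164833772 on the plus strand (Ctsa).
Ctsd: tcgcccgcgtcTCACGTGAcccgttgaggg
Ctsa: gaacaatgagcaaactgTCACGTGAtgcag
Of the windows with the palindrome, 211 bases for Ctsd and 164 for Ctsa lie in annotated exons of other transcripts of the same gene. The exonic bases of Ctsd include the palindrome. CACGTG itself was present in 6.02% of all windows, and besides these windows of Ctsd and Ctsa the window of Ctsl held it. The motifs were chosen after the expression values were seen, and a match describes letters only.

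Total counts were 1672052 to 8349128 per library, and each gene had at least 205 counts in every library. All 7 microglia markers (Cx3cr1, P2ry12, Tmem119, Csf1r, Aif1, Itgam and Trem2) had counts in every group, with summed levels of 22614 to 24738 CPM (read counts scaled to library size) in NTG and 16294.5 to 27999.5 in PS19, and of 2459 to 7953 in the cultures. P2ry12 in the tau fibril and vehicle cultures was at 3.74 to 9.24 CPM. Ikbkb was at 22.4 ± 2.86 CPM in Ikbkb-/- and 51.4 ± 4.57 in Ikbkb+/+ microglia (SD, n = 4; log2 fold change −1.20, SE 0.12, edgeR false discovery rate, FDR = 6.34e-07), and at 52.1 ± 6.71 in IkbkbCA and 45.6 ± 7.09 in IkbkbWT microglia (SD, n = 5; FDR = 0.405). By quantitative PCR the paper reported raised Ikbkb mRNA in cultured IkbkbCA microglia. On the first principal component (PC1, 31.6% of variance), replicates 1 and 2 of IkbkbWT and IkbkbCA (24.2 to 42.8) lay apart from replicates 4 and 5 (−24 to −32.5), with replicate 3 at −19.2 in IkbkbWT and 4.38 in IkbkbCA, and the labels name no batch. Replicate 3 of both groups was rich in Mbp (1910 CPM in IkbkbWT and 719 in IkbkbCA against 111 to 250 in the other 8). Xist was at 5.59 to 10.4 CPM in Ikbkb-/- and 239 to 400 in Ikbkb+/+ libraries, so that sex makeup and genotype cannot be told apart there, and in IkbkbWT it was at 1.68 to 2.76 in replicates 1 to 3 and at 452 to 472 in replicates 4 and 5, against 147 to 275 in IkbkbCA. PS19 replicates 1 and 2 lay at −5.04 and −43.2 and replicates 3 and 4 at 41.1 and 46.5 on PC1 of the adult libraries (29.5% of variance), and PS19 replicate 1, although labelled male, had 176 CPM of Xist. The same library had 122 CPM of the Y-linked gene Ddx3y. Xist was at 28.0 to 33.1 CPM in PS19 replicate 2 and all NTG libraries, and at 4.44 and 1.88 CPM in PS19 replicates 3 and 4.

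Levels are CPM after 1 TMM normalization of the 34 libraries. The library kit, QuantSeq, reads only the last part of each transcript, so CPM does not grow with length and was compared between genes as it stands. Cathepsin D, with group means of 10847 to 22769 CPM, was the most abundant cathepsin in every group but NTG. In NTG microglia, Ctss (11566 CPM) was above Ctsd (10847 CPM) on average, although the ranges overlapped, and in PS19 Ctss was above Ctsd in replicates 3 and 4. Cst3 was the second most abundant gene of both adult groups, at 39093 ± 7748 CPM in NTG and 32771 ± 16229 in PS19 (SD, n = 4), and was at 1192 to 4492 CPM on average in the cultures. The mean of Cst3 in NTG was 32.8 times that in vehicle cultures, and the ranges of the adult and cultured groups were apart. The adult and cultured cells were prepared in separate experiments, so these levels were not tested against each other, and in bulk RNA fewer cells of a type and less RNA per cell cannot be told apart.

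**Figure D1:**
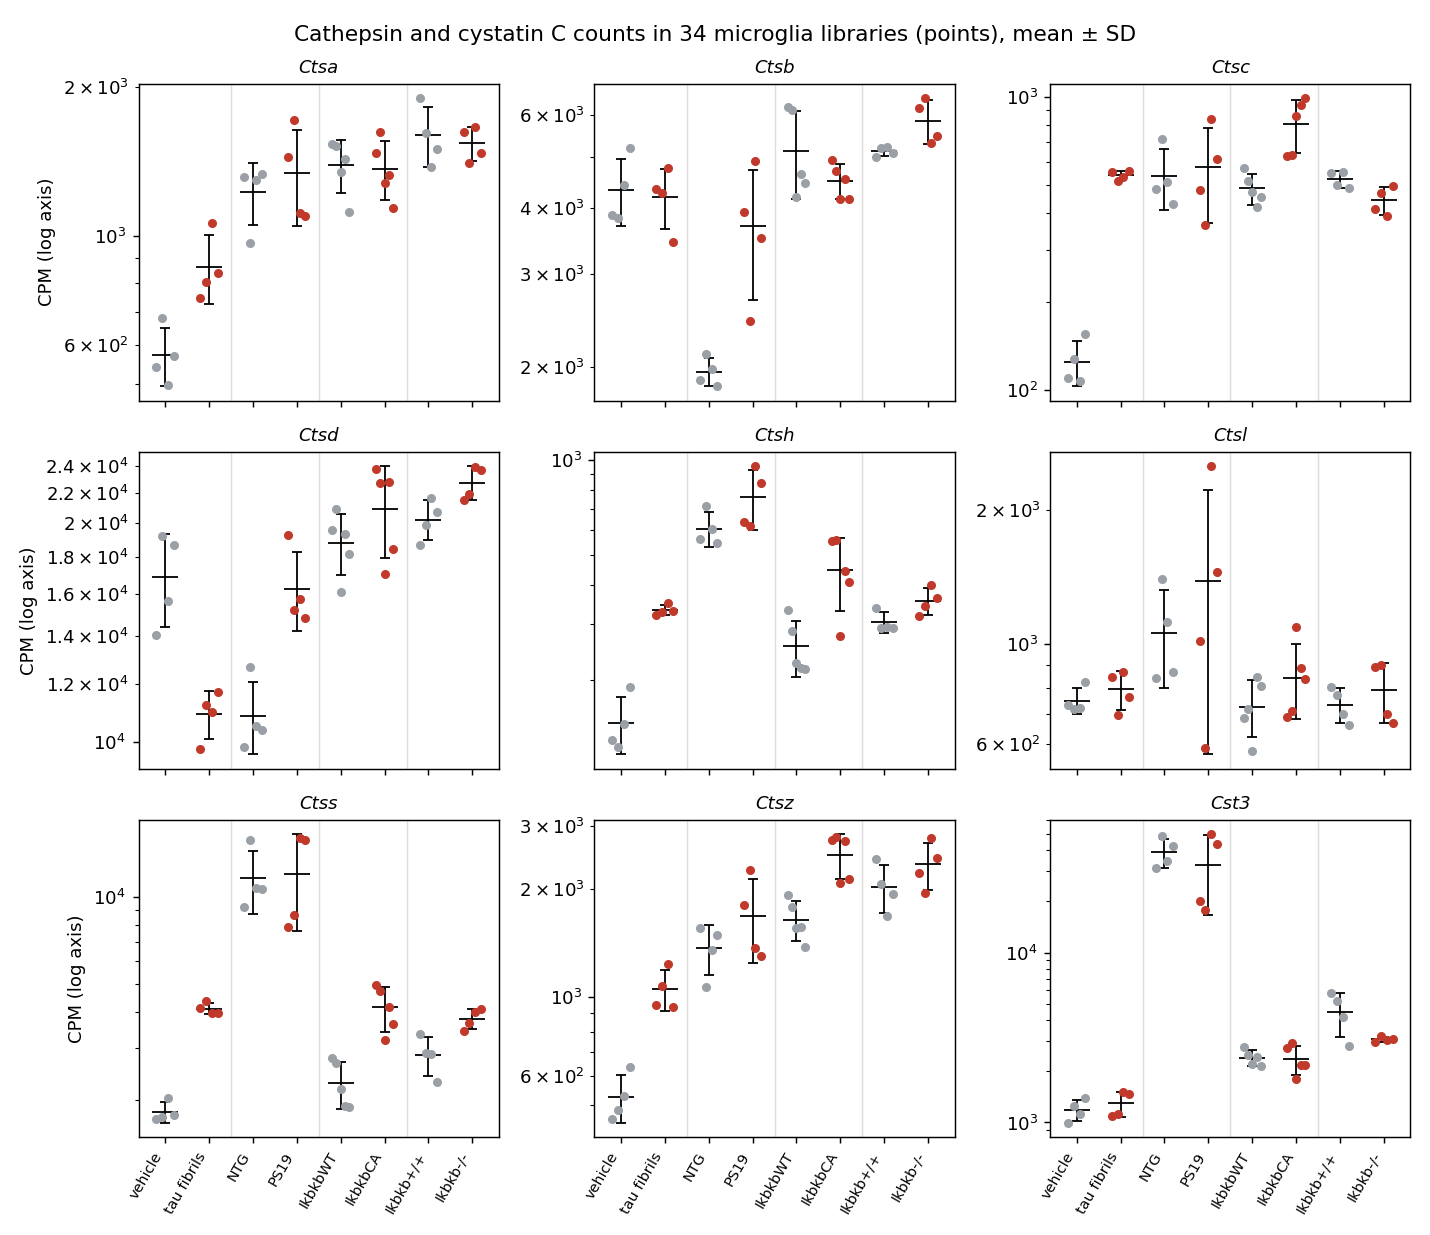
TMM-normalized CPM of the 9 genes on log axes (y) in 8 groups (x). Points are the 34 libraries, grey for controls and red for test groups, and bars give the mean ± SD. Cst3 and Ctss lie higher in NTG and PS19 than in any culture, and the Ctsc, Ctsh, Ctss and Ctsz points of tau fibrils lie above those of vehicle.

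The order of the groups differed between genes. Ctss was highest in PS19 (12003 CPM) and NTG (11566 CPM), whose ranges overlapped, and these were apart from IkbkbCA (4150 CPM) and tau fibrils (4113 CPM), which overlapped each other. Ctsb, a cysteine endopeptidase and dipeptidyl carboxypeptidase, ran in the other direction, from 5849 CPM in Ikbkb-/- cultures to 3693 CPM in PS19 and 1953 CPM in NTG, and the NTG range was apart from that of PS19. Ctsc, the dipeptidyl peptidase that activates granule serine proteases, was lowest in vehicle cultures (125 CPM), apart from every other group, and highest in IkbkbCA (810 CPM). Ctsh, an aminopeptidase, was likewise lowest in vehicle (146 CPM) and highest in PS19 (763 CPM). Ctsz, a carboxypeptidase, spanned 526 CPM in vehicle to 2485 CPM in IkbkbCA, and Ctsa spanned 572 CPM in vehicle to 1599 CPM in Ikbkb+/+. Ctsl, an endopeptidase, had the smallest fold between group means (1.91, from 727 to 1389 CPM), with each group overlapping the next in the order.

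The 9 genes together took up 2.44% of all counts in tau fibril cultures and 6.34% in PS19 microglia, the lowest and highest of the group means. The inhibitor made up most of the difference. Cst3 was 57.3% of the summed CPM of the 9 genes in NTG and 46.5% in PS19, and 4.53% to 11.9% in the cultures, where Ctsd was 45.3% to 64.1%. Per CPM of the 6 cysteine cathepsins there were 2.29 ± 0.25 CPM of Cst3 in NTG, 1.55 ± 0.37 in PS19, 0.155 ± 0.018 in vehicle and 0.118 ± 0.024 in tau fibril cultures (SD, n = 4). The ratio was 2.12 to 2.66 in the NTG libraries and 1.19 to 1.87 in the PS19 libraries, which did not overlap. In Ikbkb-/- it was 0.220 to 0.233 against 0.261 to 0.463 in Ikbkb+/+, also apart. These ratios were not tested, and Cst3 itself overlapped between the groups in both comparisons. Cathepsin S made up 67.2% of the cysteine cathepsin counts in NTG and 21.6% in IkbkbWT, where cathepsin B was 48.6%.

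**Figure D2:**
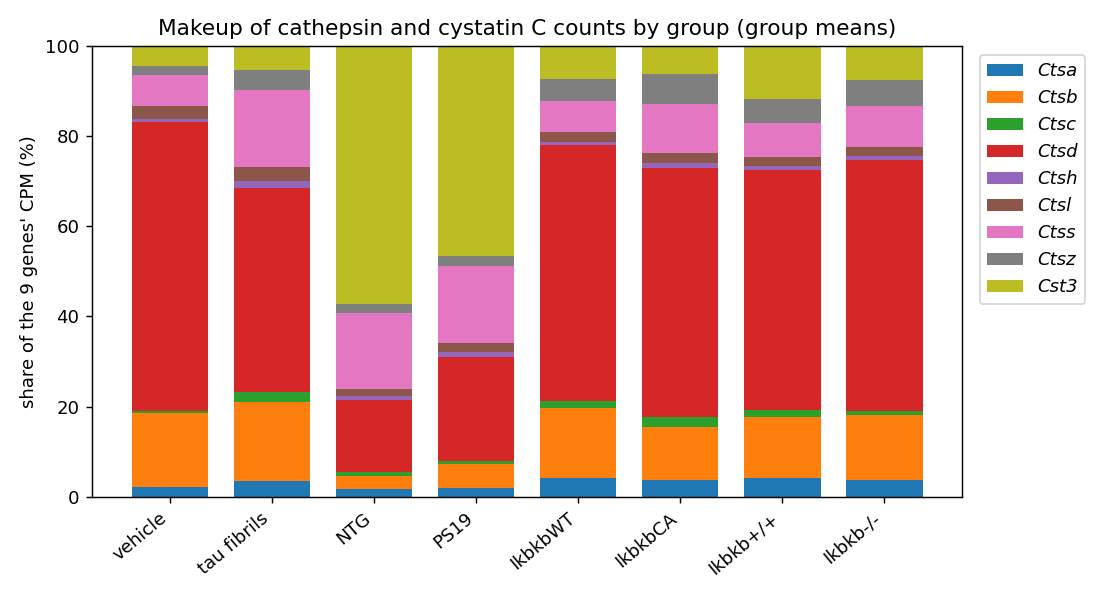
Share of each gene in the summed CPM of the 9 genes (y, percent, stacked to 100) in each of 8 groups (x), from group means. Cst3 takes up 57.3% in NTG and 46.5% in PS19, and Ctsd takes up 45.3% to 64.1% in the cultures.

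The first comparison asked how cathepsin transcripts responded to tau fibrils in culture. Of the 9 genes, 5 rose with tau fibrils and 1 fell, where 29.9% of all 10408 genes tested were called, 14.5% higher and 15.4% lower. The genes that rose were 4 cysteine cathepsins, Ctsc, Ctsh, Ctss and Ctsz, and the carboxypeptidase Ctsa, and the gene that fell was Ctsd. The 9 genes had a median log2 fold change of 0.58, against −0.01 over the genes tested.

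Ctsc was at 553, 515, 532 and 558 CPM in tau fibril replicates 1 to 4, and at 110, 127, 107 and 155 CPM in vehicle replicates 1 to 4. All tau fibril libraries were over 3 times any vehicle library, and the change was 4.27-fold (log2 2.09, SE 0.14, edgeR FDR = 1.03e-12). Ctsh was at 322, 328, 350 and 330 CPM with tau fibrils and at 128, 122, 144 and 189 CPM with vehicle. The groups did not overlap, as was the case for 14.7% of all genes in this direction, and the log2 fold change was 1.18 (SE 0.14, FDR = 1.54e-07).

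Ctss, whose product also cuts the invariant chain of MHC class II, was at 4146, 4358, 3982 and 3965 CPM with tau fibrils and at 1711, 1739, 2029 and 1774 CPM with vehicle. Every tau fibril library lay far above the vehicle range, with a log2 fold change of 1.16 (SE 0.12, FDR = 3.04e-08). Ctsz was at 951, 1070, 1237 and 938 CPM with tau fibrils and at 455, 482, 529 and 636 CPM with vehicle, a log2 fold change of 0.98 (SE 0.13, FDR = 2.34e-06). Ctsa, which also protects β-galactosidase and neuraminidase in the lysosome, was at 748, 806, 1062 and 841 CPM against 542, 680, 497 and 571 CPM, a smaller change (log2 0.58, SE 0.13, FDR = 0.00168). Neither gene overlapped between the groups.

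Ctsd was at 9765, 11246, 10983 and 11709 CPM with tau fibrils and at 14046, 19232, 15616 and 18667 CPM with vehicle. All 4 tau fibril libraries were below the vehicle range, as for 13.6% of all genes in this direction, and Ctsd fell by 0.65 on the log2 scale (SE 0.14, FDR = 0.000728). Ctsb (4198 ± 548 against 4323 ± 635 CPM, SD, n = 4), Ctsl (794 ± 79.0 against 749 ± 50.7 CPM) and Cst3 (1294 ± 223 against 1192 ± 171 CPM) did not pass the test. The 95% intervals of their log2 fold changes were −0.34 to 0.22, −0.18 to 0.32 and −0.19 to 0.39. Ctss therefore made up 37.4% of the cysteine cathepsin counts with tau fibrils and 23.8% with vehicle, while Ctsb went from 56.1% to 38.0%. The cultures of this experiment had astrocyte marker sums of 413 to 476 CPM with tau fibrils and 729 to 810 CPM with vehicle, neuron marker sums of 72.4 to 88.6 and 136 to 166 CPM, and microglia marker sums of 5500 to 6729 and 2459 to 3040 CPM. Endothelium marker sums (45.7 to 54.2 and 91.0 to 112 CPM, Cldn5 at 0) and border-associated macrophage marker sums (111 to 118 and 59.9 to 92.4 CPM) were apart too. Flt1 made up most of the endothelium sums (41.8 to 49.96 and 90.6 to 111 CPM), while Pecam1 went the other way (2.98 to 5.91 and 0 to 1.00 CPM). Pf4 made up most of the macrophage sums (90.3 to 98.6 and 42.8 to 72.0 CPM), and Lyve1 and Cd163 were at most at 0.84 CPM. Of the microglia markers, Trem2 (446 to 563 and 441 to 562 CPM) and P2ry12 overlapped between the groups. Cx3cr1, Tmem119, Csf1r, Aif1 and Itgam were apart and higher with tau fibrils. Reads outside genes were 16.3% to 22.2% in tau fibril libraries, against 23.3% to 29.1% in vehicle libraries. The part of these shifts in the cathepsin changes was not tested.

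**Figure D3:**
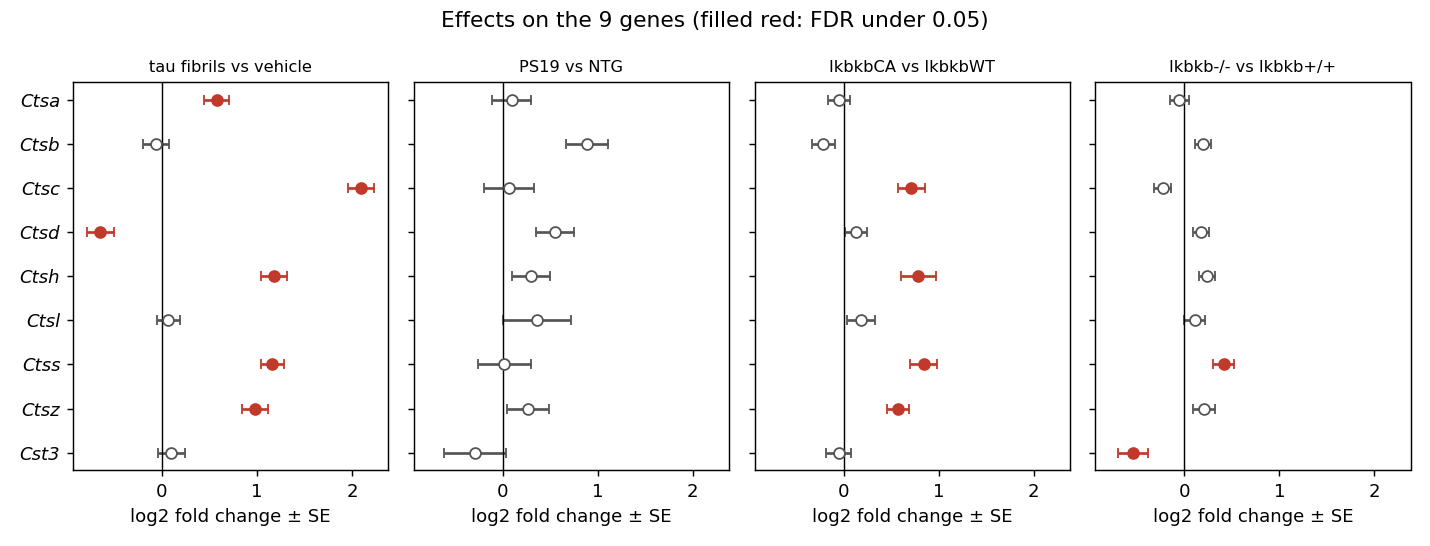
Log2 fold change with its SE (x) of each of the 9 genes (y) in the 4 comparisons (panels). Filled red points passed FDR under 0.05 in edgeR. Tau fibrils and IkbkbCA share 4 genes that rose, Ctsd fell with tau fibrils, no gene passed in PS19, and Ctss and Cst3 passed in opposite directions in Ikbkb-/-.

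Among related genes, other cystatins rose with tau fibrils while Cst3 did not pass the test. Cst7, encoding cystatin F, an inhibitor that reaches the lysosome and acts on cathepsin C, went from 8.09 ± 1.61 to 39.3 ± 6.55 CPM (SD, n = 4; log2 2.22, SE 0.23, FDR = 1.42e-08), and Cstb, the cytosolic cystatin B, passed as well (log2 1.08). These 2 were the only genes tested of a list of 17 other cystatins and kininogen. Of 15 other cathepsins 2 were tested, and Ctso rose (log2 0.90). Of 10 genes for processing and sorting of lysosomal enzymes, 4 rose and 1 fell. M6pr, the small mannose 6-phosphate receptor, rose (log2 1.12), Neu1, the neuraminidase partner of cathepsin A, rose less (log2 0.44, FDR = 0.0125), and Sort1, the sorting receptor sortilin, fell by 0.71. Lgmn, which encodes the protease that cleaves cathepsin proforms, and Psap, the saposin precursor, had log2 fold changes of 0.18 and −0.49 and did not pass. Of 4 MiT factors, which switch on lysosomal genes, 3 rose and Tfec had the largest change (1.62 ± 0.784 to 11.5 ± 3.42 CPM, log2 2.73, FDR = 1.04e-05), while Tfeb (log2 0.56, FDR = 0.0711) did not pass.

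The second comparison asked whether the same genes differed in adult microglia of a tauopathy model. None of the 9 genes was called in PS19 against NTG, where 8 of 11323 genes (0.0707%) were called, all higher. An unadjusted p under 0.05 was reached by 977 genes, 2 of them in the list (Ctsb and Ctsd). The biological coefficient of variation was 30.5%, against 16.7% in the tau fibril experiment. DESeq2 and 3 further alternatives called 1 of the 9 genes, Ctsb. From its own analysis, the paper reported Ctsb among the endo-lysosome genes raised in microglia of the tauopathy model. The main fit here did not call Ctsb, and the cause of this difference was not tested.

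Ctsb was at 3928, 2437, 4906 and 3499 CPM in PS19 replicates 1 to 4 and at 1888, 2109, 1977 and 1838 CPM in NTG replicates 1 to 4. All 4 PS19 libraries were above the NTG range, as for 3.86% of all genes in this direction, with a log2 fold change of 0.89 (SE 0.22, FDR = 0.242). Without PS19 replicate 2, Ctsb passed (log2 1.07, FDR = 0.0256), as without PS19 replicates 1 and 2 (log2 1.09, FDR = 0.0095), and over all alternatives its FDR was 0.0095 to 0.98. Ctsd was at 19257, 15187, 15731 and 14801 CPM in PS19 and at 9845, 12658, 10504 and 10379 CPM in NTG, again without overlap (log2 0.55, SE 0.20, FDR = 0.456).

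Cst3 was at 20131, 17678, 49638 and 43637 CPM in PS19 and at 31283, 48534, 34493 and 42060 CPM in NTG. PS19 replicates 1 and 2 were below every NTG library, and replicate 3 was above all of them. The log2 fold change was −0.29 (SE 0.33), −1.08 without PS19 replicates 3 and 4 and 0.24 without PS19 replicates 1 and 2. Ctss was split in the same way, at 7824, 8616, 15926 and 15647 CPM in PS19 and 9228, 15682, 10698 and 10656 CPM in NTG. The microglia marker sum was 16294.5, 21987 and 22210 CPM in PS19 replicates 1 to 3, below all NTG libraries, and 27999.5 CPM in replicate 4, above them. The border-associated macrophage marker sum was 830 CPM in PS19 replicate 1 and 311 to 572 CPM in NTG, and all 6 of its markers had counts. Granulocyte marker sums were 410 to 2615 CPM in PS19 and 1585 to 2215 CPM in NTG. Astrocyte marker sums were 864, 1100, 2043 and 1630 CPM in PS19 replicates 1 to 4 and 698 to 1060 CPM in NTG. Replicates 2 to 4 of PS19 were above all NTG libraries, with replicates 3 and 4 highest. Slc1a3 made up most of these astrocyte sums (833 to 2009 CPM in PS19 and 643 to 1005 CPM in NTG). The medians of Aqp4, Slc1a2, Aldoc and Gja1 were lower in PS19, that of Sox9 was higher, and Gfap was alike (1.75 and 1.76 CPM). The part of the marker sums in the split was not tested. Ctsl ranged most widely, at 1017, 588, 2502 and 1449 CPM in PS19 against 843 to 1403 CPM in NTG (log2 0.36, SE 0.36), and Ctsa, Ctsc, Ctsh and Ctsz had log2 fold changes of 0.07 to 0.30.

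Cst7 was 1 of the 8 called genes and rose from 23.6 ± 8.04 to 269 ± 119 CPM (SD, n = 4; log2 3.49, SE 0.35, FDR = 0.000822). Cstb, the other cystatin tested, did not pass. None of 3 other cathepsins, 10 processing and sorting genes or 4 MiT factors passed, where 1, 3 and 0 had an unadjusted p under 0.05. Psap was at 2741 ± 1557 CPM in PS19 and 1281 ± 257 in NTG (log2 1.06, FDR = 0.436), and Lgmn at 2282 ± 1074 and 3233 ± 234 CPM (log2 −0.53, FDR = 0.689). Neu1 (log2 0.13) and Tfeb (log2 0.22) did not pass either.

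The third comparison asked how these genes differed between cultured microglia with and without the active IKKβ allele. In IkbkbCA against IkbkbWT, 4 of the 9 genes rose and 0 fell, where 14.5% of all 11697 genes tested were called, 7.31% higher and 7.16% lower. The 4 were Ctss, Ctsh, Ctsc and Ctsz, all cysteine cathepsins and all among the genes that rose with tau fibrils. The call of these 4 held in all 20 alternatives, among them 3 library sets (replicates 1 and 2, 3, and 4 and 5) as a covariate, without the Mbp-rich pair, and without each library.

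Ctss was at 4973, 4724, 3218, 4180 and 3654 CPM in IkbkbCA replicates 1 to 5 and at 2776, 2664, 2172, 1897 and 1888 CPM in IkbkbWT replicates 1 to 5. Every IkbkbCA library was above the IkbkbWT range, as for 6.92% of all genes in this direction (log2 0.84, SE 0.15, FDR = 0.0023). Ctsc was at 628, 636, 859, 936 and 991 CPM in IkbkbCA and at 572, 517, 472, 421 and 454 CPM in IkbkbWT, also without overlap (log2 0.71, SE 0.14, FDR = 0.00541).

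Ctsh was at 554, 555, 276, 442 and 410 CPM in IkbkbCA and at 332, 285, 226, 217 and 216 CPM in IkbkbWT. The Mbp-rich IkbkbCA replicate 3 lay within the control range and the other 4 above it (log2 0.79, SE 0.19, FDR = 0.0143). Ctsz was at 2731, 2783, 2073, 2708 and 2129 CPM in IkbkbCA and at 1922, 1775, 1558, 1569 and 1374 CPM in IkbkbWT, without overlap (log2 0.58, SE 0.12, FDR = 0.0058). Within each library set, all 4 genes were higher in IkbkbCA than in IkbkbWT.

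Ctsa and Ctsd, which changed with tau fibrils, did not pass here. Ctsa was at 1367 ± 188 against 1389 ± 171 CPM (SD, n = 5) with a 95% interval of its log2 fold change of −0.29 to 0.20, and Ctsd was at 20958 ± 3017 against 18813 ± 1821 CPM with an interval of −0.13 to 0.39. The intervals were −0.47 to 0.05 for Ctsb, −0.13 to 0.50 for Ctsl and −0.34 to 0.23 for Cst3. Microglia marker sums were 4794 to 7653 CPM in IkbkbCA and 4572 to 6580 CPM in IkbkbWT. They include Cx3cr1, at 1109 to 1300 CPM in IkbkbCA, where an allele is missing, and 1458 to 1967 CPM in IkbkbWT. Border-associated macrophage marker sums were 483 to 1028 CPM in IkbkbCA and 1374 to 1893 CPM in IkbkbWT, with counts for all 6 markers. Mrc1 made up most of the IkbkbWT sums (946 to 1296 CPM, against 198 to 323 in IkbkbCA). Lyve1, F13a1 and Cbr2 were lower in IkbkbCA too, Pf4 overlapped (224 to 815 and 279 to 495 CPM), and Cd163 was at most at 1.54 CPM. Granulocyte marker sums were 16.9 to 85.3 and 6.32 to 12.0 CPM, with Elane and Mpo at 0. S100a8 made up most of the IkbkbCA sums (13.8 to 76.1 CPM, against 3.16 to 7.03 in IkbkbWT), while S100a9 overlapped (1.92 to 4.05 and 1.95 to 3.64 CPM). Reads outside genes were 12.4% to 13.99% in IkbkbCA and 15.9% to 18.7% in IkbkbWT. The part of these shifts in the result was not tested.

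Both other cystatins tested rose, Cst7 from 71.9 ± 58.8 to 246 ± 60.3 CPM (log2 1.76, SE 0.51, FDR = 0.0399) and Cstb (log2 0.83). Of the 10 processing and sorting genes 2 rose and 1 fell. Igf2r, the large mannose 6-phosphate receptor, rose most (14.7 ± 4.84 to 51.6 ± 31.3 CPM, log2 1.76, FDR = 0.0147), M6pr rose (log2 0.52), and Sort1 fell by 0.90 (FDR = 0.000113). Of 3 other cathepsins Ctso rose (log2 0.55). Of the 4 MiT factors Tfec fell by 0.62, and Tfeb (log2 −0.54, FDR = 0.0737) did not pass. Lgmn, Psap and Neu1 had log2 fold changes of −0.32, 0.03 and −0.05 and did not pass.

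The fourth comparison asked how the same genes differed between cultures with deleted and intact Ikbkb. In Ikbkb-/- against Ikbkb+/+, 1 of the 9 genes rose and 1 fell, where 14.6% of all 11242 genes tested were called, 7.64% higher and 6.96% lower. Ctss was at 3435, 3677, 3994 and 4095 CPM in Ikbkb-/- replicates 1 to 4 and at 3364, 2892, 2872 and 2299 CPM in Ikbkb+/+ replicates 1 to 4. The groups did not overlap, as for 9.11% of all genes in this direction, but the nearest libraries were close (log2 0.41, SE 0.11, FDR = 0.0142). In 1 fit with the 10 IkbkbCA and IkbkbWT libraries the FDR was 0.117, and with Ddx3y, a Y-linked gene, as a covariate there it was 0.277, so the call was lost (0.000263 to 0.277 over all alternatives).

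Cst3 was at 2964, 3216, 3061 and 3096 CPM in Ikbkb-/- and at 5775, 5191, 4192 and 2812 CPM in Ikbkb+/+. The Ikbkb-/- libraries had an SD of 104 CPM and all lay above the lowest control library, and Cst3 fell by 0.54 on the log2 scale (SE 0.16, FDR = 0.0262). The call was lost in 8 of 16 alternatives, among them DESeq2 (FDR = 0.0825), without Ikbkb+/+ replicate 1 or 2 (FDR = 0.0898 and 0.0876) and without Ikbkb-/- replicate 1, 3 or 4 (FDR = 0.0639, 0.0616 and 0.0567), and the FDR over all alternatives was 2.54e-08 to 0.0898. Granulocyte marker sums in Ikbkb+/+ replicates 1 to 4 were 395, 91.3, 37.8 and 7.83 CPM, against 8.02 to 12.0 CPM in Ikbkb-/-. Astrocyte marker sums in the same Ikbkb+/+ libraries were 209, 158, 104 and 59.4 CPM (38.3 to 82.6 in Ikbkb-/-), and microglia marker sums were 7953, 7321, 6625 and 5739 CPM (5379 to 6453 in Ikbkb-/-). The microglia sum includes Cx3cr1, at 1824 to 2814 CPM in Ikbkb+/+ and 947 to 1155 CPM in Ikbkb-/-, where an allele is missing. Genotype and microglia content therefore cannot be told apart in this sum. All 3 sums ranked the Ikbkb+/+ libraries as Cst3 did. Within the astrocyte sum of these libraries, Slc1a3 ranged most widely (21.6 to 190 CPM), and every other astrocyte marker was at most at 14.6 CPM. Gfap ran against this order, with its lowest level in replicate 1 (2.16 CPM) and its highest in replicate 4 (7.16 CPM). Sums that were apart between Ikbkb+/+ and Ikbkb-/- were those of border-associated macrophages (1487 to 1820 and 417 to 732 CPM), oligodendrocytes (296 to 408 and 556 to 652 CPM) and endothelium (63.8 to 114 and 161 to 214 CPM). Flt1 made up most of the endothelium sums (61.4 to 99.7 and 159 to 213 CPM). Medians of Cldn5, Pecam1 and Cdh5 went the other way (5.18 to 0, 4.43 to 1.06 and 1.37 to 0.481 CPM). The part of the marker sums in the result was not tested.

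Ctsc was at 416, 470, 393 and 496 CPM in Ikbkb-/- and at 551, 499, 553 and 487 CPM in Ikbkb+/+. It was lower in 3 of 4 libraries than in any control and did not pass (log2 −0.23, SE 0.09, FDR = 0.0921). Ctsb was at 6182, 6456, 5297 and 5461 CPM against 4988, 5203, 5222 and 5088 CPM, without overlap, and did not pass (log2 0.20, FDR = 0.16). Ctsa, Ctsd, Ctsh, Ctsl and Ctsz had log2 fold changes of −0.05, 0.17, 0.24, 0.11 and 0.21 and did not pass. Cst7 rose (log2 0.90, FDR = 0.0337), although the groups overlapped. Of 3 other cathepsins Ctse rose (log2 0.74) and Ctsf fell by 0.37, and of the processing and sorting genes Gnptab rose (log2 0.36) and Sort1 fell by 0.37. Of the MiT factors Tfec fell by 1.05 (FDR = 6.16e-05) and Mitf by 0.38, and Lgmn, Psap, Neu1 and Tfeb did not pass (log2 −0.02, 0.09, −0.17 and −0.14).

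Whether effects differed between experiments was tested as the difference of log2 fold changes in a fit of 4 groups. Ctsc was the gene whose effect differed in all 3 of these tests. Its mean was 125 CPM in vehicle and 539 CPM with tau fibrils, and 487, 523 and 537 CPM in the IkbkbWT, Ikbkb+/+ and NTG controls. The part of the low vehicle level in these differences was not tested. The IkbkbCA effect on Ctsc exceeded that of Ikbkb-/- by 0.96 (SE 0.18, FDR = 0.00517), where 3.12% of 12352 genes were called, 2.23% in this direction, and no other gene of the 9 passed. Ctss, which was higher in both IkbkbCA and Ikbkb-/-, had a difference of 0.44 (95% interval 0.02 to 0.87, FDR = 0.303). The tau fibril effect exceeded the IkbkbCA effect by 1.31 for Ctsc (SE 0.20, FDR = 0.000231), where 9.42% of 12841 genes were called, 5.86% in this direction, and was below it by 0.85 for Ctsd (log2 difference −0.85, SE 0.17, FDR = 0.00349), where 3.55% were called. For Ctsh, Ctss and Ctsz the same differences were 0.32 (95% interval −0.21 to 0.84), 0.25 (−0.14 to 0.64) and 0.33 (−0.05 to 0.71) and did not pass. All 4 MiT factors had a larger effect with tau fibrils than in IkbkbCA, from 0.84 for Tfe3 to 3.28 for Tfec, and Tfeb was among them (1.03, FDR = 0.0471).

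Tau fibrils in culture and PS19 in the adult brain differed for 5 of the 9 genes. The tau fibril effect was larger for Ctsc (1.94, SE 0.30, FDR = 0.000176), Ctss (1.06, SE 0.31, FDR = 0.0361) and Ctsh (0.79, SE 0.24, FDR = 0.049), where 8.07% of 11852 genes were called, 4.42% in this direction. It was smaller for Ctsd (−1.28, SE 0.24, FDR = 0.00105) and Ctsb (−1.03, SE 0.27, FDR = 0.0165), where 3.65% were called. Ctsd thus fell in tau fibril cultures while all PS19 libraries were above NTG. With total-count scaling Ctsh and Ctss no longer passed (FDR = 0.104 and 0.0622). Cst7 had the larger effect in PS19 (−1.37, FDR = 0.0479). Total-count scaling shifted the whole distribution, to a median of −0.16 with tau fibrils and −0.11 in IkbkbCA on the log2 scale, and the called genes from 1506 higher and 1602 lower to 1057 and 2254, and from 855 and 837 to 753 and 1252, and the same numbers of the 9 genes were called in either direction.

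Genes with the most similar pattern were ranked by Pearson r of log2 CPM over the 34 libraries, after subtracting the mean of each experiment, among 13697 genes with a symbol. The values describe libraries that share groups and sets, and no test was made. Ctsh was most like Ctss (r = 0.92), followed by C1qc (0.91), a complement subunit, and Ctsc was most like Adgre1 (0.94), which encodes F4/80. Ctss was closest to Capza2 (0.94), Itm2b (0.93) and the RNA sensor Tlr3 (0.92), and Ctsz to Psme1 (0.90), a proteasome activator subunit. Ctsb was closest to Lpl (0.86), lipoprotein lipase, and Ctsa to the MiT factor Tfe3 (0.86). The nearest genes were Syngr1 for Ctsd (0.83), Ggh, a lysosomal hydrolase, for Ctsl (0.84) and Cmtm6 for Cst3 (0.80), and P2ry12, a gene of resting microglia, was next for Cst3 (0.77). Among the 9, Ctsd was opposite to Ctsc (r = −0.44) and close to Ctsb (0.54), and Ctsa went with Ctsz (0.76).

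**Figure D4:**
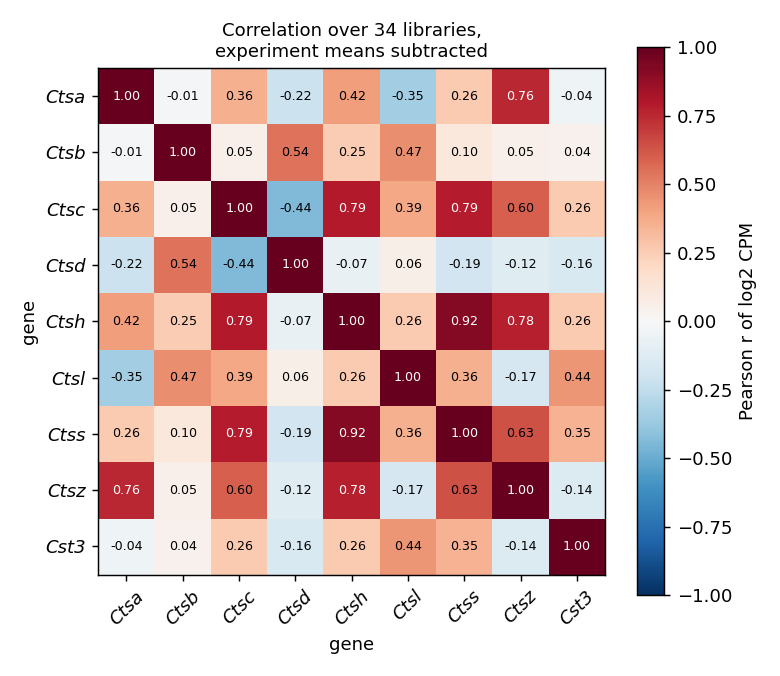
Pearson r of log2 CPM between the 9 genes (both axes) over 34 libraries with experiment means subtracted, from blue (−1) to red (1). Ctsc, Ctsh, Ctss and Ctsz are red with each other (0.60 to 0.92), and Cst3 is at most 0.44 with any cathepsin.

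When group means were subtracted instead, so that only the spread between libraries of a group was left, some of these relations changed. Ctsh and Ctss still went together (r = 0.78), as did Ctsa and Ctsz (0.80), while Ctsc and Ctsz were opposite (−0.45) and Cst3 was close to Ctss (0.82) and Ctsh (0.68). Ctsl ran with Ctsc (0.74) and against Ctsz (−0.60). PS19 had the widest spread of Cst3, Ctss, Ctsl and Ctsc, with an SD of 49.5%, 36.5%, 59.1% and 35.5% of the mean. In each of these, PS19 replicates 1 and 2 lay below replicates 3 and 4, and for Ctsz they lay above. The part of this split in the r values was not tested.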

How the data were processed

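QuantSeq 3′ mRNA-Seq libraries of 34 microglia samples were analysed, grouped by the sample labels. The authors mapped reads to GRCm38 with GENCODE annotation on the BlueBee platform and deposited raw counts per gene for each library, with no normalization. The tables hold whole numbers in the layout of htseq-count, and the counting program for these libraries is not clearly given in the sources used here. The 5 lines naming no gene were left out, and 12.4% to 38.3% of the reads counted to genes, to no gene or as ambiguous lay outside genes. Symbols and coordinates came from GENCODE M21, which held 47224 of 47643 identifiers.

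Each comparison was fitted on its 2 groups with edgeR 4.0.16 (R 4.3.3): TMM, filterByExpr (minimum count 10, minimum total 15), the quasi-likelihood test, and Benjamini-Hochberg adjustment over all genes tested, with calls at FDR under 0.05. SEs were derived from the F statistic. Differences of effects were tested in fits of 4 groups. Log2 CPM used a prior count of 2. Alternatives were RLE, total-count scaling, DESeq2 1.42.0, limma-voom (limma 3.58.1), no filter, a minimum of 10 counts in all libraries, leaving out each library, age as a covariate, 1 fit of both Ikbkb experiments and, chosen after the data were seen, library sets or Ddx3y as covariates and fits without doubted libraries. The fits were tested on simulated counts. None of the 56 pairs of libraries within groups was identical. Labels do not say whether culture replicates were separate preparations, so p-values measure the spread between these samples, which may be technical.

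The members, gene lists and markers were chosen with earlier results of these data known. Named were the 9 genes, Ikbkb, Cst7, Lgmn, Psap, Neu1 and Tfeb, the 3 called list genes of largest change per comparison, the 3 genes most like each member, and markers. Other list genes (Cstb, Ctso, Ctsf, Gnptab, Mitf and Tfe3, and M6pr, Sort1 and Tfec in comparisons where this rule did not reach them) and the promoter motifs were chosen after the values were seen. A further microglia marker is not reported here, and its counts are in none of the marker sums.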

Additional observations from a re-analysis of the deposited data

Results flagged for a closer look

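In 3 of the 72 groups of libraries tested for outlying values, 1 library lay far from the others by Dixon's ratio, and chance alone flags about 1 group in 20. Ctsa was at 966 CPM in NTG replicate 2, below the other 3 at 1299 to 1332. Ctsh was at 339 CPM in Ikbkb+/+ replicate 1, above the others at 291 to 294. Ctsl was at 824 CPM in vehicle replicate 4, above the others at 718 to 731.

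The effect on Ctsc differed between IkbkbCA and Ikbkb-/- (log2 difference 0.96, FDR = 0.00517), between tau fibrils and IkbkbCA (1.31, FDR = 0.000231) and between tau fibrils and PS19 (1.94, FDR = 0.000176) in edgeR. The effect on Ctsd was lower with tau fibrils than in IkbkbCA (−0.85, FDR = 0.00349) and than in PS19 (−1.28, FDR = 0.00105). Against PS19, the tau fibril effect was also lower for Ctsb (−1.03, FDR = 0.0165) and higher for Ctsh (0.79, FDR = 0.049) and Ctss (1.06, FDR = 0.0361).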

How the results depend on the processing

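The counts of members called with tau fibrils (5 higher, 1 lower) and in IkbkbCA (4 and 0) were the same in all 14 and 20 alternatives. In PS19, 1 gene was called higher with DESeq2, with no filter and without PS19 replicates 1 and 2, and 0 to 1 when leaving out each library. All genes called in PS19 were 8 higher and 0 lower, 79 and 19 with DESeq2, 127 and 39 with no filter, and 4 and 0 with limma-voom. In Ikbkb-/-, 0 members were called lower with DESeq2, and 0 lower and 0 higher in 1 fit of 18 libraries and with Ddx3y as a covariate, and leaving out each library gave 1 to 2 higher and 0 to 1 lower. Between tau fibrils and PS19, total-count scaling called 1 gene higher. The cause was not tested in any of these.

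Log2 fold changes that turned sign had not passed the test. With total-count scaling these were Ctsl (−0.089) and Cst3 (−0.060) with tau fibrils and Ctsa in the difference of IkbkbCA and Ikbkb-/- (−0.026). In PS19 they were Ctss with limma-voom (−0.035), Ctsa with age as a covariate (−0.0014), Ctsa, Ctsz and Cst3 without replicates 1 and 2 (−0.17, −0.047 and 0.24), and Ctsc, Ctsl and Ctss without replicates 3 and 4 (−0.36, −0.42 and −0.52). Cst3 in IkbkbCA was 0.028 without the Mbp-rich pair. Leaving out each library gave −0.12 to 0.040 for Ctsb with tau fibrils, −0.013 to 0.18 for Ctsa, −0.17 to 0.27 for Ctsc, −0.083 to 0.64 for Ctsl and −0.15 to 0.22 for Ctss in PS19, −0.12 to 0.011 for Ctsa and −0.14 to 0.056 for Cst3 in IkbkbCA, and −0.12 to 0.048 for Ctsa in Ikbkb-/-. No paired analysis was possible because the labels give no replicate numbers, and the library sets used as a covariate in IkbkbCA were seen in the data. The 9 genes had at least 205 counts in every library, and what depth limits was not tested.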
